A study of Mus musculus with 5 samples.

Results

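The genes described here are 32 members of glycolysis and of the cellular response to low oxygen, chosen by symbol among the 27998 genes that each deposited count table lists, and every symbol matched 1 gene. They comprise 16 enzymes of the glycolytic chain and of lactate formation, 4 transporters of glucose and lactate, 3 regulatory kinases, 4 genes of oxygen sensing and 5 genes known to be induced under hypoxia. The tissue is the disc of the temporomandibular joint (TMJ), a fibrocartilage plate between the jaw and the skull whose middle holds almost no vessels. Cells were taken from discs of wild-type C57BL/6 mice, untreated and 3 d, 3 w, 16 w or 78 w old, and from discs of 7 w old mice labelled as wild-type C57BL/6 that had been injured with a needle at 5 w of age. The 3 d pups were of both sexes and were pooled into 1 cell suspension, and the older untreated mice were males. For the injury procedure the methods name Myh11-CreER+; Tm fl/- mice, in which tamoxifen-driven recombination marks cells that use the smooth muscle promoter Myh11, so the genotype of the injured library is given here as labelled. Each of the 5 conditions is 1 single-cell library. No difference between conditions therefore has a replicate check and no test was made, and the deposited file of the 78 w library carries another age in its name than the labels give.

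Glycolysis splits glucose into pyruvate in the cytosol and yields ATP without oxygen. Under low oxygen the prolyl hydroxylases Egln1 and Egln3 no longer mark the hypoxia-inducible factors Hif1a and Epas1 for degradation, and the stabilised factors, paired with Arnt, bind DNA at a short core and raise transcription of most glycolytic genes, of the glucose transporter Slc2a1 and of the lactate exporter Slc16a3. Because Hif1a is controlled largely as a protein, its mRNA does not measure its activity. Cartilage and the inner zones of discs and menisci are known as tissues with little oxygen in which cells rely on glycolysis.

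The promoters of the members carried the core of the hypoxia-response element more often than those of other genes. The 250 bases before each annotated start were read from RefSeq on GRCm38.p6, and the letters ACGTG and GCGTG were searched on both strands, where the palindrome CACGTG counts once on each strand. Windows were found for 29 of the 32 members, not for Slc2a3, Epas1 and Ndrg1. Of these 29 genes, 27 (93.1%) held at least 1 core in a window, against 41.5% of 27025 genes in the table. Counted by window, 35 of 42 (83.3%) of the members held one, against 38.6% of all 32851 windows and 53.6% of the 14314 windows of genes with at least 50 UMIs in the stromal-like cells described next. ACGTG alone, read on either strand, was held by 17 members (58.6%) and by 18.5% of all genes. Both cores contain the letters CG, and the windows differed in these. The median number of CG was 14 in the windows of members and 6 in all windows. It was 15 in the windows of genes with at least 50 UMIs. The part of this in the shares was not tested. A match of this length is a description of the letters and not a bound site. 4 windows that overlap no annotated exon are shown, for members whose levels differed in the comparisons that follow, with the cores in capitals, written 5′ to 3′ on the strand of the gene and ending at the base before the start. They belong to Pgk1 (phosphoglycerate kinase), Ldha (the lactate dehydrogenase that turns pyruvate into lactate), Pdk1 (the kinase that keeps pyruvate out of the mitochondrial cycle) and Adm (the vasodilator peptide adrenomedullin).
Pgk1, chrX:106186850-106187099, + strand: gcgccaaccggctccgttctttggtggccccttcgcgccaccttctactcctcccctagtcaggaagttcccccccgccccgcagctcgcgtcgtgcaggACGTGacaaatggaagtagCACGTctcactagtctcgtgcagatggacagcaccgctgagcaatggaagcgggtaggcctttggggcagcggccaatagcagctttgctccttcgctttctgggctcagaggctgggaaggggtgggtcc
Ldha, chr7:46845554-46845803, + strand: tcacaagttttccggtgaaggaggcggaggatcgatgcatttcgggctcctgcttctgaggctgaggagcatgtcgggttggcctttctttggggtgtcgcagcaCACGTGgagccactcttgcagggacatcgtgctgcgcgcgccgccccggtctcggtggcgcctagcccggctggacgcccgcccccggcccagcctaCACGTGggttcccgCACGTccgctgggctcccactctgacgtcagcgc
Pdk1, chr2:71872974-71873223, + strand: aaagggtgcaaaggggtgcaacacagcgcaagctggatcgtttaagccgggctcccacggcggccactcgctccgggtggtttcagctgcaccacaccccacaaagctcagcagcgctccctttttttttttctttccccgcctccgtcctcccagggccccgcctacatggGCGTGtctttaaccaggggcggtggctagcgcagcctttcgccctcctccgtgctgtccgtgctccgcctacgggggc
Adm, chr7:110627407-110627656, + strand: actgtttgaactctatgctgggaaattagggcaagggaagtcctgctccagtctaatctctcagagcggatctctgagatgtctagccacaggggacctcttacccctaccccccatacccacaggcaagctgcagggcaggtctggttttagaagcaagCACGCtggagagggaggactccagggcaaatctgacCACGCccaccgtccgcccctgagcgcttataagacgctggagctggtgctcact
Pgk1 held its cores 150 and 131 bases before the start, Ldha held 5 matches between 145 and 34 bases before it, Pdk1 held 1 at 78 bases and Adm held 2 at 90 and 54 bases.

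The libraries held between 8467 barcodes (injured) and 15169 barcodes (3 d), and between 31585993 UMIs (injured) and 125427849 UMIs (3 w). A UMI is a tag by which the copies of 1 captured RNA molecule are counted once. After cells with 200 UMIs or fewer, or with over 30% of UMIs from mitochondrial genes, were left out, 51688 cells remained. The injured library was the shallowest, with a median of 3299 UMIs per cell against 7721 to 12496 in the others, and any pair of libraries shared between 19 and 39 barcodes. Cells were clustered without the 32 members and were named from marker lists: 41730 cells (80.7%) were stromal-like, 3494 endothelial-like, 1498 macrophage-like and 1264 mural-like, the last being the muscle cells and pericytes around vessels. The stromal-like cells formed 3 clusters. The largest, called Chad-high, had 2341 CPM of Chad, which encodes the cartilage protein chondroadherin, and was led by Ibsp, Chad and Cytl1, with Col2a1 among its 10 leading genes. The smallest, called Sfrp2-high, had 805.6 CPM of the Wnt modulator Sfrp2, and was led by Pi16, Clec3b and Mfap4, and the third lay between them. Both levels are means over the 5 libraries with equal weights. The Chad-high cluster held 1304 cells at 3 d and 4852 at 3 w. By marker UMIs alone, 66 stromal-like cells at 3 d and 4316 at 3 w had Chad and no Sfrp2. The name of the cluster therefore rests on the mean, and ratios to 3 d within it carry that limit. Since Ibsp and Col2a1 are genes of bone and cartilage, comparisons of libraries over all stromal-like cells are also given within the clusters. The clusters were formed after the libraries had been integrated, that is, aligned with each other. Without this step, a stromal-like cluster held 9927 cells of 3 d and 0 of 3 w. Another held 7806 cells of 3 w and 0 of 3 d. A further one held 6829 cells of the injured library, 147 of 3 w and 78 of 16 w. Ratios between these libraries within a cluster therefore rest on the alignment. Levels are given as CPM, the UMIs of a gene scaled by the UMI total of the same cells in the same library. Intervals are exact 95% Poisson intervals, or exact binomial intervals for shares, and cover counting error only. Because 3′ counting favours some transcripts over others, levels are compared between samples and cell types and not between genes.

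Within every library, most glycolytic enzymes stood higher in the Chad-high cluster than in the Sfrp2-high cluster. All 32 members reached 50 UMIs over the 5 libraries in 1 cluster or the other. Of these, 14 were at least 2-fold higher on the geometric mean over the 5 libraries and higher in each of them, against 3.13% of 14308 genes, and 1 was lower by the same rule, against 7.1%. The median log2 ratio was 0.97 over the members and -0.09 over all genes. The clusters had been formed without the members, and the 5 ratios of a gene come from cells of the same 5 libraries.

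The enzymes that passed came from earlier and later steps of the chain. Pgk1, which makes the first ATP of the pathway's second stage, was measured at 49.3 CPM in the Chad-high and 14.4 CPM in the Sfrp2-high cluster at 3 d, at 42.4 and 11.4 at 3 w, 35.6 and 12.3 at 16 w, 50.3 and 14.2 at 78 w, and 55.4 and 17.6 in the injured disc. The 2 sets of values do not overlap, and the ratio was 3.34 on the geometric mean, with a range over libraries of 2.90 to 3.73. Eno1, the enolase of most tissues, had 425 CPM against 111 at 3 d, 206 against 58.2 at 3 w, 189 against 71.6 at 16 w, 273 against 90.8 at 78 w and 299 against 107 after injury, 3.13-fold higher on the geometric mean. Reads of its retrogene copy Eno1b were at most 0.288% of the sum of both in stromal-like cells. Pkm, the pyruvate kinase that closes the chain, was 2.54-fold higher (range 2.204 to 2.75), Gapdh, often taken as a constant reference, 2.22-fold (1.82 to 2.53), Aldoa, the aldolase of muscle and most connective tissue, 2.16-fold (1.93 to 2.35) and Ldha 2.08-fold (1.70 to 2.59). Pfkl, an isoform of phosphofructokinase, the committed step, was 3.03-fold higher (1.95 to 3.88), and Ldhb, the dehydrogenase subunit that favours pyruvate, 2.197-fold (1.45 to 3.62). The other isoform Pfkp lay just under the limit at 1.97-fold (1.82 to 2.16). Pgam1, the mutase between Pgk1 and Eno1, had a ratio of 1.84 and did not pass. In all, 8 of the 16 enzymes passed and 7 more lay above 1 on the geometric mean, while Hk2, the inducible hexokinase, lay below it at 0.83 and on either side of 1 in different libraries (0.40 to 1.40).

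Among the transporters and the genes of oxygen sensing, Slc16a3 and Egln3 had the largest ratios, while Egln1 did not pass. Slc16a3, the low-affinity monocarboxylate carrier that exports lactate, had 51.8 CPM in the Chad-high and 11.4 CPM in the Sfrp2-high cluster at 3 d, 49.2 and 7.41 at 3 w, 50.4 and 8.95 at 16 w, 62.4 and 11.5 at 78 w, and 55.9 and 9.45 after injury. The values of the clusters lay apart in every library, and the ratio was 5.59 (4.56 to 6.63). Slc16a1, the carrier that also imports lactate, was lower in the Chad-high cluster in all 5 libraries, with a ratio of 0.64 that did not pass. Slc16a3 therefore held between 64.7% and 85.4% of the UMIs of these 2 carriers in the Chad-high cluster and between 11.7% and 53.3% in the Sfrp2-high cluster. Slc2a1, the basal glucose transporter, was 2.26-fold higher (1.78 to 3.31), and Slc2a3, its high-affinity relative, was lower in 5 of 5 libraries with a ratio of 0.71. Egln3, a hydroxylase that is itself induced by hypoxia, was 8.50-fold higher, with a wide range of 2.33 (3 d) to 47.3 (78 w), on at most 3.29 CPM in the Sfrp2-high cluster (4 UMIs at 78 w). Hif1a was 1.95-fold higher (1.45 to 2.85), higher in 5 of 5 libraries and under the limit, Epas1 was near equal at 0.92 and Egln1 was at 1.34.

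Among the hypoxia targets, the mitophagy gene Bnip3 was 4.52-fold higher (3.60 to 5.73), with 96.3, 176, 153, 174 and 186 CPM in the Chad-high cluster at 3 d, 3 w, 16 w, 78 w and after injury, against 21.9, 48.9, 41.3, 30.9 and 32.4 CPM. Ankrd37, a small ankyrin repeat protein, was 2.58-fold higher (1.46 to 4.58). Pdk1, counted here with the regulatory kinases, was 2.65-fold higher (2.28 to 3.27). The target Ero1l did not pass, with 22.4, 33.7, 34.6, 45.4 and 38.5 CPM in the Chad-high cluster against 20.45, 31.6, 21.1, 32.9 and 29.7 CPM. Adm went the other way: it had 2.27, 2.60, 6.70, 7.36 and 5.74 CPM in the Chad-high cluster against 5.09, 19.3, 47.2, 37.4 and 7.09 CPM in the Sfrp2-high cluster, 3.74-fold lower on the geometric mean. Ndrg1, a stress-response gene with many inducers, had a ratio of 0.67 and was lower in 4 of 5 libraries, so the hypoxia targets did not share 1 direction. Of the other genes of hypoxia, listed with earlier results of these data known, 8 of 30 were higher and 1 was lower, among them the mitochondrial protein Fam162a (3.75-fold higher). Of the other genes of glycolysis, 21 of 30 had enough UMIs and 1 of them was higher, the muscle enolase Eno3 (3.08-fold).

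The sum of stress genes differed between the clusters in the direction opposite to that of most members, with 2142 to 9110 CPM in the Chad-high and 5069 to 23160 CPM in the Sfrp2-high cluster, and its part in the result was not tested. The listed genes of osteoblasts and chondrocytes summed to 129 to 832 CPM in the Chad-high and to 11.8 to 63.3 CPM in the Sfrp2-high cluster. Cycling cells were 13.1% of the Chad-high and 33.5% of the Sfrp2-high cells at 3 d. In place of clusters, stromal-like cells named by marker UMIs were split into those with Chad and no Sfrp2 and the reverse. With this split 9 members were higher and none was lower, and the share of all genes is not given for it. It left 66 Chad cells at 3 d, and 96 and 156 Sfrp2 cells at 16 w and 78 w. With the clusters, Ldha no longer passed without the injured library, and Ldhb did not without 78 w.

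**Figure D1:**
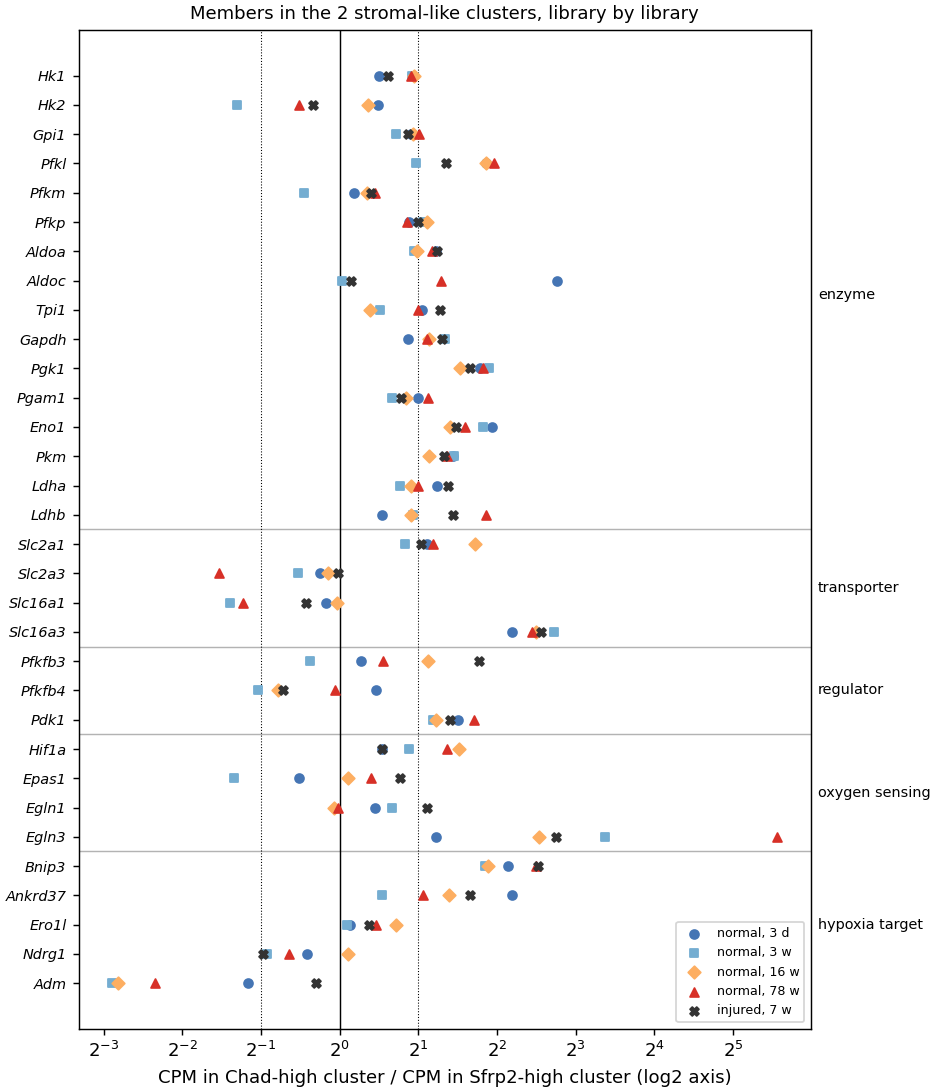
The plot of ratios by library gives, for each member, CPM in the Chad-high cluster divided by CPM in the Sfrp2-high cluster on a log2 axis, with 1 symbol per library, the solid line at equal levels and the dotted lines at 2-fold. Slc16a3, Bnip3, Pgk1 and Eno1 lie right of the 2-fold line in all 5 libraries, Adm lies left of equality in all 5, and Hk2 and Ndrg1 lie on both sides.

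Most members had more UMIs at 3 w than at 3 d in the stromal-like cells as a whole, with 24 of 31 above a ratio of 1, and the make-up of these cells differed between the libraries too. Over all stromal-like cells, 31 members reached 50 UMIs in at least 1 of the libraries compared, 11 were at least 2-fold higher at 3 w, against 16.5% of 13991 genes, and none was at least 2-fold lower, against 20.3%. The median log2 ratio was 0.62 over the members and -0.06 over all genes. The Chad-high cluster, however, was 12.0% of the stromal-like cells at 3 d and 61.2% at 3 w, while the Sfrp2-high cluster was 40.6% and 8.46%. With the 3 clusters weighted equally in both libraries, the median over the members was 0.02, with 11 members higher and 3 lower, and over all genes it was -0.01, with 17.8% higher and 17.97% lower. Aldoa and Slc16a3 were then no longer among the higher ones, and Epas1 and Adm were.

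5 of 31 members were at least 2-fold higher at 3 w within each of the 3 clusters, against 9.53% of 11472 genes: Hk2, Pfkp, Slc2a3, Slc16a1 and Ndrg1. Over all stromal-like cells Hk2 was at 14.6 CPM in the 3 d library, 89.9 in the 3 w, 145.5 in the 16 w, 126 in the 78 w and 149 in the injured library, so that the newborn library stood apart from the other 4. At 3 w it was 6.14-fold higher than at 3 d (95% interval 5.81 to 6.49), and 4.89-fold higher within the Chad-high, 5.64-fold within the intermediate and 17.0-fold within the Sfrp2-high cluster. Pfkp, the platelet-type phosphofructokinase, had 14.7, 100, 126, 125 and 34.7 CPM in the same order, 6.80-fold higher at 3 w (6.44 to 7.18) and between 4.15- and 4.94-fold higher within the clusters. Ndrg1 had 34.9, 189, 273, 267 and 93.25 CPM, 5.42-fold higher at 3 w (5.23 to 5.62) and between 4.92- and 8.66-fold higher within the clusters. Slc2a3 had 4.03, 9.33, 10.1, 9.13 and 5.04 CPM and Slc16a1 had 10.9, 27.95, 28.3, 24.1 and 14.2 CPM, and in both the 3 d and injured libraries were the lowest. Hif1a had 124.5, 321, 247, 248 and 225 CPM, 2.58-fold higher at 3 w (2.53 to 2.63), 2.188- and 2.202-fold within the Chad-high and intermediate clusters and 1.72-fold within the Sfrp2-high cluster.

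The shares of the isoforms of the first steps differed as well. Pfkp held 31.8% of the UMIs of the 3 phosphofructokinase genes in stromal-like cells at 3 d (30.5% to 33.2%), 78.2% at 3 w, 77.1% at 16 w, 75.3% at 78 w and 54.9% after injury. Within the Chad-high cluster it held 29.1% at 3 d and 80.0% at 3 w, so the difference is present within 1 cluster of the integrated libraries. Hk2 held 51.2% of the UMIs of Hk1 and Hk2 at 3 d and 77.7%, 77.5% and 76.0% at the later ages, and 87.5% after injury. Pfkm, the isoform of muscle, held 24.4% of the phosphofructokinase UMIs at 3 d, 3.88% to 6.58% at the later ages and 15.8% after injury.

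**Figure D2:**
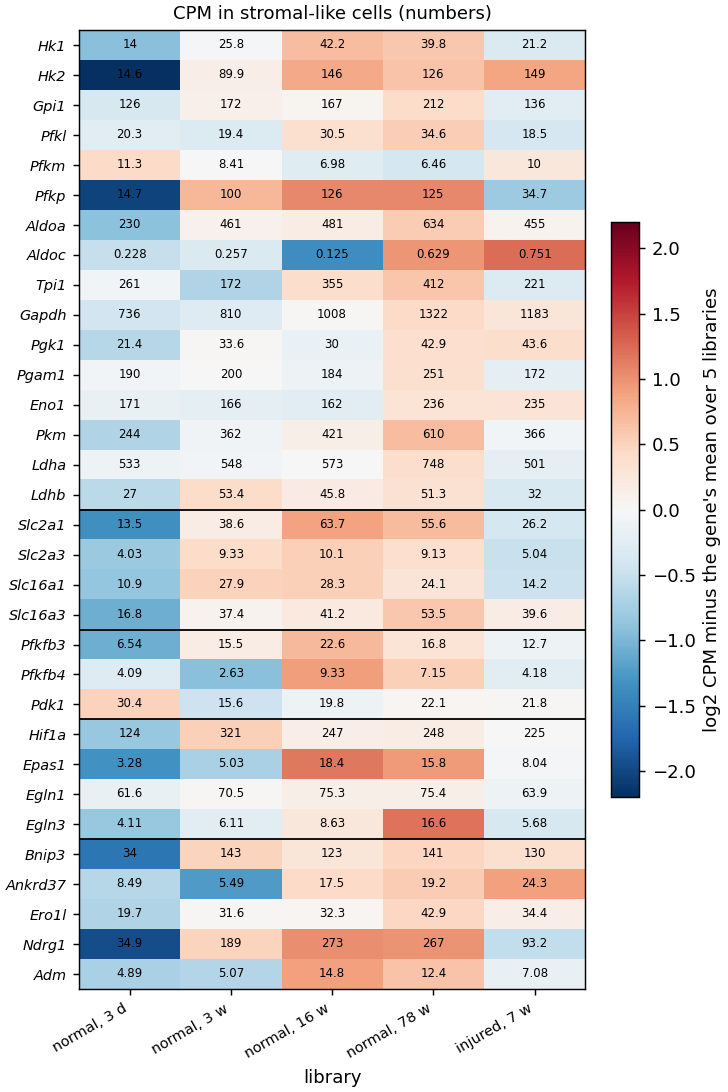
The heat map gives the CPM of each member in stromal-like cells of each library as numbers, grouped by role, with the colour showing log2 CPM minus the mean of the gene over the 5 libraries. Hk2, Pfkp, Bnip3 and Ndrg1 are lowest at 3 d, and Pfkp and Ndrg1 are lower in the injured library (34.7 and 93.25 CPM) than in the libraries of 3 w and older untreated mice.

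Within the clusters the same comparison also held members that were lower at 3 w. In the Chad-high cluster 7 members were at least 2-fold higher (background 16.9%) and 5 were lower (16.3%), in the intermediate cluster 8 were higher (20.4%) and 3 lower (14.7%), and in the Sfrp2-high cluster 10 were higher (15.9%) and 2 lower (19.4%). Pdk1 was lower in all 3: it had 56.5 CPM at 3 d and 17.98 CPM at 3 w in the Chad-high cluster, a ratio of 0.32 (0.29 to 0.35), with 0.33 and 0.40 in the others. Eno1 had 425 and 206 CPM in the Chad-high cluster, a ratio of 0.49, with 0.53 in both other clusters, whereas over all stromal-like cells it was 171 and 166 CPM. Tpi1, the triose isomerase, had 465 and 185 CPM, a ratio of 0.40, with 0.59 and 0.57 in the others. Gapdh lay at 0.83, 0.73 and 0.60 within the clusters and at 1.10 over all of them. Slc16a3 was 2.23-fold higher over all stromal-like cells, but lay at 0.95 within the Chad-high, 1.07 within the intermediate and 0.65 within the Sfrp2-high cluster, and was 0.93 with equal weights. Ankrd37 had 19.6 CPM at 3 d and 5.75 CPM at 3 w in the Chad-high cluster, 0.29 of its first level, and 4.29 and 3.95 CPM in the Sfrp2-high cluster. Bnip3 was 4.20-fold higher over all stromal-like cells and 1.83-, 2.52- and 2.23-fold within the clusters. The rest of the oxygen genes did not follow 1 direction either: of the other genes of hypoxia 10 were higher and 6 lower of 30, from Ppp1r3c (6.42-fold higher), which promotes glycogen storage, to the carbonic anhydrase Car12 (12.8-fold lower).

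Other features moved with this comparison. Cycling cells were 24.1% of the stromal-like cells at 3 d and 1.90% at 3 w, and without them the median over the members was 0.71. Haemoglobin and other erythroid genes summed to 1278 CPM in stromal-like cells at 3 d, 3.96 CPM at 3 w and 296 CPM after injury, skeletal muscle genes to 42.7 and 4.66 CPM at 3 d and 3 w, and stress genes to 5064 and 8267 CPM. The part of these in the result was not tested, and age cannot be told apart from the sex of the pups or from the library.

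**Figure D3:**
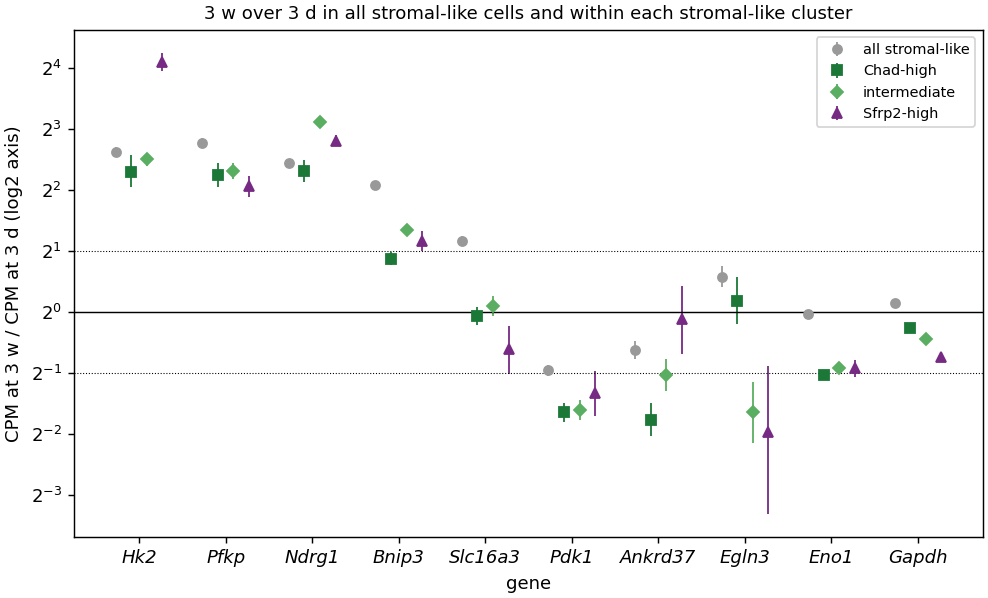
The plot gives CPM at 3 w divided by CPM at 3 d on a log2 axis for 10 members, over all stromal-like cells (grey) and within each of the 3 clusters, with bars for the 95% counting interval and dotted lines at 2-fold. Hk2, Pfkp and Ndrg1 lie above 2-fold in all clusters. The grey points of Pfkp, Slc16a3 and Bnip3 lie above all of their cluster points, and those of Eno1 and Gapdh lie near 1 with cluster points below.

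The 3 w library was also set against 3 d in the other classes. In endothelial-like cells 28 members passed the minimum, 11 were at least 2-fold higher (background 16.4%) and none was lower (23.5%), with a median log2 ratio of 0.48 against -0.17. Pfkfb3, which makes the activator of phosphofructokinase and is known for its role in vessel sprouting, had 9.40 CPM at 3 d and 104 CPM at 3 w there, 11.1-fold higher (8.72 to 14.2), and then 36.5 CPM at 16 w, 63.7 at 78 w and 16.4 after injury. In mural-like cells 14 of 28 were higher (19.4%) and 1 was lower (22.0%). Slc2a1 had 8.48 CPM at 3 d and 71.8 CPM at 3 w there. Among the higher ones, Hk2, Slc2a1, Slc2a3, Slc16a1, Slc16a3, Pfkfb3, Pfkfb4, Bnip3 and Adm reached the minimum only at 3 w. Their counts at 3 d were 12 to 41 UMIs. Pdk1, with 15 UMIs at 3 w and 48 at 3 d, missed the minimum and was not counted as lower. The shares of all genes rest on the same minimum. In macrophage-like cells 7 of 22 were higher (14.1%) and 1 lower (12.2%). Of 21 members that passed in all 4 classes, 6 were at least 2-fold higher at 3 w in each of them, against 6.71% of 6272 genes, namely Slc2a1, Pfkfb3, Hk2, Pfkp, Hif1a and Ndrg1, with ratios of Hk2 between 2.71 and 6.14, of Pfkp between 2.22 and 6.80, of Hif1a between 2.06 and 2.60 and of Ndrg1 between 2.55 and 5.42. Of these, Hk2, Slc2a1 and Pfkfb3 passed the minimum in mural-like cells through the 3 w library alone. The classes come from the same 2 libraries. Cycling cells were 38.0% of endothelial-like, 38.7% of mural-like and 41.9% of macrophage-like cells at 3 d. At 3 w they were 3.86%, 8.76% and 23.9%, and their part in these ratios was not tested.

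From 3 w to 16 w, 5 of 31 members were at least 2-fold higher in stromal-like cells, against 5.9% of all genes, and none was lower, against 6.59%. The median log2 ratio was 0.22 over the members and -0.09 over all genes, and 0.21, 0.28 and -0.04 within the Chad-high, intermediate and Sfrp2-high clusters. Epas1, the second hypoxia-inducible factor, was at 3.28 CPM in the 3 d library, 5.03 in the 3 w, 18.45 in the 16 w, 15.8 in the 78 w and 8.04 in the injured library. It was 3.67-fold higher at 16 w than at 3 w (3.33 to 4.05), 4.23- and 3.79-fold in the Chad-high and intermediate clusters and 1.55-fold in the Sfrp2-high cluster. Pfkfb4, a bifunctional kinase of the same family as Pfkfb3, had 4.09, 2.63, 9.33, 7.15 and 4.18 CPM, 3.54-fold higher at 16 w (3.09 to 4.07). Ankrd37 had 8.49, 5.49, 17.5, 19.2 and 24.3 CPM, 3.20-fold higher (2.90 to 3.52), so that its lowest library was 3 w. Adm had 4.89, 5.07, 14.8, 12.4 and 7.08 CPM, 2.92-fold higher (2.64 to 3.24), and between 2.45- and 3.84-fold within the clusters. Tpi1 had 261, 172, 355, 412 and 221 CPM, 2.07-fold higher. Stress genes summed to 8267 CPM at 3 w and 13610 CPM at 16 w, and their part in these differences was not tested. Of the other genes of hypoxia 3 were higher and 1 lower of 28 that passed the minimum, with Pgf, a ligand of the VEGF family, 4.08-fold and Vegfa 2.83-fold higher.

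From 16 w to 78 w the levels were close. Of the 32 members only Aldoc, a brain-type aldolase, was at least 2-fold higher, against 2.42% of all genes, and none was lower, against 1.78%. Aldoc rested on 57 UMIs at 78 w and 10 at 16 w, 0.63 and 0.12 CPM. It passed the minimum only through the 78 w library, and the call was lost with marker-based classes. The median log2 ratio was 0.16 over the members and -0.06 over all genes, and 0.18, 0.16 and 0.21 within the 3 clusters. The enzymes lay higher than the transporters, with medians of 0.37 and -0.17, as 12 of 16 enzymes and 1 of 4 transporters had a ratio above 1. Egln3 came next after Aldoc, with 4.11, 6.11, 8.63 and 16.6 CPM from 3 d to 78 w, 1.92-fold higher at 78 w than at 16 w (1.75 to 2.11).

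Set against the newborn disc, the aged disc had more UMIs of most members. At 78 w, 19 of 32 were at least 2-fold higher than at 3 d in stromal-like cells, against 14.3% of 13889 genes, none was lower, against 22.5%, and the median log2 ratio was 1.16 over the members and -0.19 over all genes. All 4 transporters and all 5 hypoxia targets were among the 19, from Ero1l, an oxidase of the endoplasmic reticulum, at 2.17-fold to Ndrg1 at 7.66-fold, and only Pfkm (0.57) and Pdk1 (0.73) were below 1. The share of Chad-high cells was 12.0% at 3 d and 68.6% at 78 w. Within the Chad-high, intermediate and Sfrp2-high clusters the median was 0.69, 0.85 and 0.50, against -0.13, -0.05 and -0.18 over all genes. Hk2 (8.24, 5.93 and 16.5), Pfkp (5.58, 6.83 and 5.63) and Ndrg1 (7.65, 11.1 and 8.98) were far above 2-fold in each cluster. Others were not: Slc16a3 had ratios of 1.20, 2.57 and 1.012, Bnip3 of 1.81, 2.02 and 1.41, Ankrd37 of 0.98, 2.23 and 2.15 and Ero1l of 2.03, 2.07 and 1.61. In the Chad-high cluster Eno1 (0.64), Pgam1 (0.83), Pfkl (0.84), Ldha (0.86), Egln1 (0.91) and Tpi1 (0.95) were below 1 as well. Eno1 was also below 1 in the intermediate (0.90) and Sfrp2-high (0.82) clusters, while the rest of these were above 1 in the intermediate cluster. In the Sfrp2-high cluster Pgam1 (0.77), Pfkl (0.78) and Tpi1 (0.99) were below 1 too. Pdk1 had ratios of 0.44, 0.50 and 0.38 and Pfkm of 0.52, 0.57 and 0.435 within the 3 clusters. Egln3 was at 0.14 (0.04 to 0.36) in the Sfrp2-high cluster, on 4 UMIs at 78 w, and Ldhb was at 0.69 there. This comparison shares both of its libraries with the ones above and is no separate evidence.

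In the injured disc no member was at least 2-fold higher than in both the 3 w and the 16 w library, against 3.69% of 12478 genes, and 2 of 31 were lower than in both, against 7.97%. These are the normal libraries on either side of its age, and no sham-operated library is among the samples. Pfkp had 34.7 CPM after injury, 100 at 3 w and 126 at 16 w, 2.88- and 3.63-fold lower. Within the clusters it was lower by a similar factor, with ratios to 3 w of 0.35, 0.39 and 0.37 and to 16 w of 0.28, 0.31 and 0.31. Ndrg1 had 93.25 CPM against 189 and 273, 2.03- and 2.93-fold lower, with ratios to 3 w of 0.52, 0.39 and 0.54 within the clusters. Its call was lost with trimmed-mean (TMM) scaling, where its nearer ratio was 0.56, and with finer clusters, where it was 0.51.

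Against 3 w alone, 1 member was higher (background 6.26%) and 2 were lower (17.1%), and against 16 w alone none was higher (6.71%) and 7 were lower (14.4%). The median over all genes was itself -0.31 and -0.27 on the log2 scale, beside -0.07 and -0.24 over the members. Ankrd37 was the 1 that was higher than at 3 w, 4.43-fold (3.97 to 4.95), with 24.3 CPM against 5.49, and it was 1.39-fold higher than at 16 w. Within the clusters it was 5.19-, 3.67- and 2.40-fold higher than at 3 w, the last below the minimum of 50 UMIs. Of the 15 enzymes that passed, 5 lay above both neighbours and 8 below both, with Gapdh, Pgk1 and Eno1 above by 1.17- to 1.46-fold, and Ldha (501 CPM against 548 and 573) and Aldoa (455 against 461 and 481) below. Of the transporters, Slc2a3 and Slc16a1 lay below both, with ratios between 0.50 and 0.54. Slc2a1 lay below both too, with 26.2 CPM against 38.6 at 3 w and 63.7 at 16 w. Slc16a3 (39.6 CPM) lay between its neighbours (37.4 and 41.2 CPM). Adm had 5.74 CPM in the Chad-high cluster of the injured disc against 2.60 at 3 w and 6.70 at 16 w, and 7.09 CPM in the Sfrp2-high cluster against 19.3 and 47.2. Of the other genes of hypoxia 4 were higher than in both neighbours and 2 lower of 28. The largest ratios were those of the chemokine receptor Cxcr4 (8.30-fold) and the carbonic anhydrase Car9 (4.44-fold). Cxcr4 did not pass the minimum between 3 w and 16 w. On the geometric mean Cxcr4 was 141-fold higher in macrophage-like and 45.1-fold higher in endothelial-like than in stromal-like cells. The part of such cells or their RNA in its ratio was not tested. Of the other genes of glycolysis 1 was higher (Slc2a12) and 1 lower, the starvation-induced kinase Pdk4 (5.34-fold lower).

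Macrophage genes summed to 135 CPM in the stromal-like cells of the injured library and to 14.2 to 27.3 CPM in the others, and erythroid genes to 296 CPM, against 3.96 to 33.0 CPM in the untreated libraries after 3 d. The injured library had the fewest UMIs per cell, and the part of these features in the differences was not tested. With 1 injured library, injury cannot be told apart from age, genotype or the library.

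**Figure D4:**
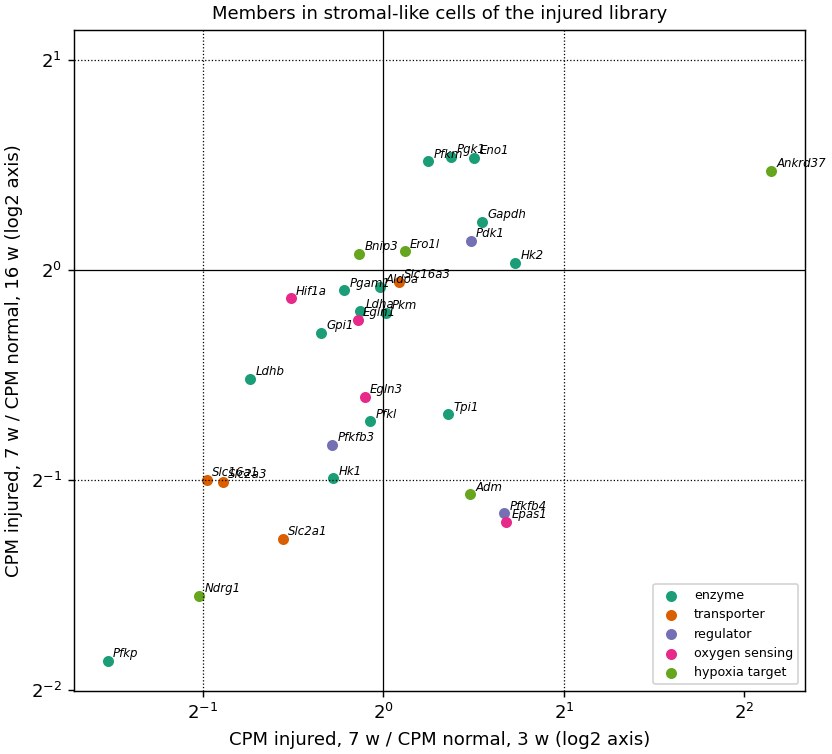
The plot gives, for each member that passed the minimum, CPM in stromal-like cells of the injured library divided by CPM at 3 w (horizontal, log2 axis) and at 16 w (vertical, log2 axis), coloured by role, with dotted lines at 2-fold. Pfkp and Ndrg1 lie below 2-fold in both directions, and Ankrd37 lies 4.43-fold higher than 3 w and 1.39-fold higher than 16 w.

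Among the 32 members, Epas1 had the largest ratios between cell types. Epas1 had 205, 342, 439, 422 and 231 CPM in endothelial-like cells and 168, 401, 449, 444 and 371 CPM in mural-like cells at 3 d, 3 w, 16 w, 78 w and after injury, where stromal-like cells had 3.28 to 18.45 CPM and macrophage-like cells 3.44 to 15.1 CPM. The vessel classes did not overlap with the others, and Epas1 was 37.8-fold higher in endothelial-like (range 23.8 to 68.0) and 41.9-fold in mural-like cells (24.4 to 79.7) than in stromal-like cells of the same library. Hif1a, in contrast, was at 0.96 in endothelial-like, 1.16 in mural-like and 0.52 in macrophage-like cells relative to stromal-like cells. Epas1 thus held 51.3% to 68.0% of the UMIs of the 2 factors in endothelial-like and 50.1% to 64.5% in mural-like cells, and 1.54% to 6.95% in stromal-like cells.

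In endothelial-like cells 2 members were higher (background 9.25%) and 4 lower (7.38%) than in stromal-like cells in all 5 libraries and by at least 2-fold on the geometric mean, with a median log2 ratio of -0.41 over the members and 0.11 over all genes. Beside Epas1, Pfkfb3 was 2.38-fold higher, but its range of 1.29 to 6.74 was set by 3 w, and without that library it no longer passed. Hk2 was 3.63-fold lower, with 4.88, 21.5, 34.4, 30.6 and 51.5 CPM against 14.6 to 149 in stromal-like cells, Ldhb 3.46-fold lower, Slc16a3 3.19-fold lower and Bnip3 2.07-fold lower. The last 2 were not lower than in every stromal-like cluster. Slc16a3 had 7.69 to 17.4 CPM in endothelial-like cells and 7.41 to 11.5 CPM in the Sfrp2-high cluster, and Bnip3 had 21.5 to 80.2 and 21.9 to 48.9 CPM. With finer clusters the endothelial-named cells fell in clusters of 2996 and 653 cells. In the smaller cluster 8 stromal markers were raised, against 0 in the larger. Its cells had a median of 1.77 times the median UMIs of their library, against 0.49 times in the larger. The part of such cells in these ratios was not tested. Without doublets by rank, 7 members were lower, and the share of all genes is not given for that setting. The call on Bnip3 was lost without the 3 w or the injured library, with finer clusters and with marker-based classes.

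In mural-like cells 3 members were higher (6.12%) and 2 lower (3.33%). Slc2a3 had 10.1, 52.7, 55.5, 70.9 and 37.1 CPM, above stromal-like cells of the same library each time and 5.36-fold higher on the geometric mean (2.50 to 7.77). It held 42.3% to 61.9% of the UMIs of the glucose transporters Slc2a1 and Slc2a3 there and 13.7% to 23.0% in stromal-like cells. Adm was 2.37-fold higher (1.76 to 4.27), Bnip3 3.27-fold lower and Hk2 2.19-fold lower, and with marker-based classes Adm and Hk2 no longer passed. The Sfrp2-high cluster alone had 47.2 CPM of Adm at 16 w and 37.4 CPM at 78 w, above mural-like cells with 26.1 and 27.3 CPM. In the other libraries mural-like cells had more Adm than this cluster, on 5 UMIs after injury.

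In macrophage-like cells 1 member was higher (11.0%) and 6 were lower (11.7%). Without doublets by rank 10 were lower, and the share of all genes is not given for that setting. Pfkfb4 was 2.21-fold higher (1.75 to 3.91), a call that was lost without the 3 w library, with TMM scaling and with marker-based classes. Ldhb was 4.23-fold lower, with 7.63 to 10.4 CPM against 27.0 to 53.4 CPM in stromal-like cells, Pfkm 2.86-fold, Pdk1 2.59-fold, Bnip3 2.55-fold and Ankrd37 2.04-fold lower, the last not without the 16 w or the 78 w library. Egln3, also counted as lower, rested on 7, 2, 1, 6 and 1 UMIs in macrophage-like cells, and since counts under 3 were set to 3 no fold is given. Bnip3 was thus lower than in stromal-like cells as a whole in all 3 other classes and in all 5 libraries. The Sfrp2-high cluster alone, at 21.9 to 48.9 CPM of Bnip3, overlapped with macrophage-like cells at 29.8 to 46.2 CPM. It lay below them in each library except 3 w. Pdk1 (7.64 to 19.9 against 5.58 to 16.2 CPM) and Ankrd37 (3.95 to 9.45 against 3.39 to 12.9 CPM) overlapped between these cells too. Among the other genes of glycolysis 3 of 26 were higher in macrophage-like cells and 3 lower, with Hk3, a hexokinase of myeloid cells, at 9.67 to 25.1 CPM against at most 0.0709 CPM in stromal-like cells, the monocarboxylate carrier Slc16a7 3.96-fold and G6pdx, the entry enzyme of the pentose phosphate pathway, 2.92-fold higher. Of the other genes of hypoxia 2 were higher and 12 lower of 30, the former including the chemokine receptor Cxcr4. The number of mural-like cells in the injured library was 118, with 323222 UMIs, so its low counts are the least precise.

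The 1156 synovial lining-like cells, the layer that secretes joint fluid, had no member at least 2-fold higher than stromal-like cells in all 5 libraries (background 4.0%) and 4 lower (3.49%). Ldhb was 8.15-fold lower, with 2.66 to 7.62 CPM, Pfkfb3 2.34-fold and Slc16a1 2.12-fold lower. Egln3, the other, had 0.693 to 3.99 CPM in the untreated libraries and no UMI in the injured one, and as counts under 3 were set to 3 no fold is given. The median log2 ratio was -0.22 over the members and 0.09 over all genes. The cells numbered between 80 (3 w) and 469 (3 d) per library.

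**Figure D5:**
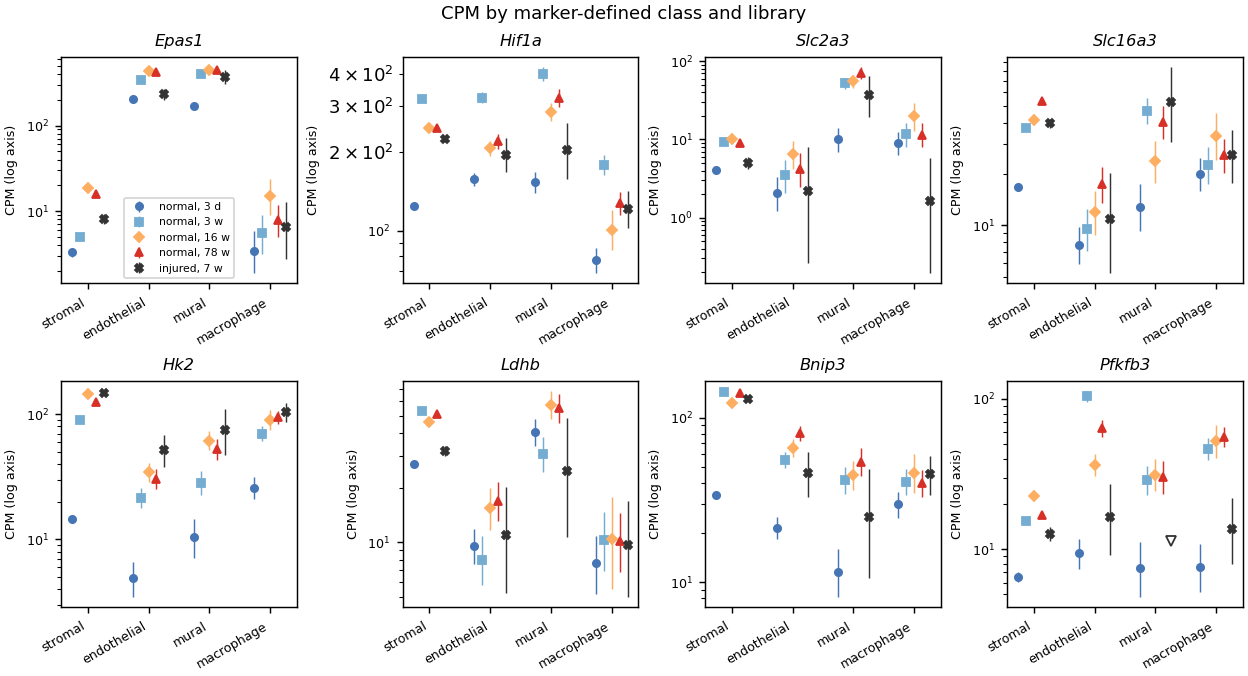
The panels give CPM on a log axis for 8 members in stromal-, endothelial-, mural- and macrophage-like cells, with 1 symbol per library and bars for the 95% counting interval, and an open triangle marks the limit allowed where no UMI was counted. Epas1 lies at 168 CPM or more in both vessel classes and at 18.45 CPM or less in the others, Slc2a3 is highest in mural-like cells of each library (by less than the counting intervals at 3 d, with 10.05 against 9.10 CPM in macrophage-like cells), and Bnip3 is highest in stromal-like cells of each library.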

How the data were processed

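Single-cell libraries (10x Genomics, 3′ UMI counts) of mouse TMJ discs were analysed from 5 gene-by-cell count matrices, the deposited counts, which the authors made with Cell Ranger on mm10, the matrix headers naming version 4.0.0. Counts were not normalised by the authors. Cells above 200 UMIs whose mitochondrial share did not pass 30% were integrated and clustered in Seurat 5.3.0 with R 4.3.3 (2000 variable genes, 30 dimensions, resolution 0.2) without the 92 genes of the pathway lists, and named by marker lists. Doublets were not removed, as the Scrublet caller's automatic threshold marked 0 to 2 cells per library and so had not worked. UMIs were summed per class and library, and CPM, ratios and exact 95% Poisson intervals were computed with scipy 1.17.1. A gene passed with at least 50 UMIs on the side with more of them (summed over libraries between classes; after injury, the injured library or each neighbour), and a difference of at least 2-fold was counted. For ratios, counts under 3 were set to 3. With 1 library per condition no test was made. The named genes were the 32 members and, of 2 lists of other pathway genes, those among the 3 largest ratios in each direction. The members and lists were chosen with earlier results of these data known. The calculation was tested on simulated counts, and TMM factors came from edgeR 4.0.16. Gene positions were not used beyond the promoter windows.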

Additional observations from a re-analysis of the deposited data

Results flagged for a closer look

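Ankrd37 differed in direction between cell types in the injured library relative to 3 w. Its ratio was 4.43 in stromal-like cells and 0.409 in mural-like cells (5 against 105 UMIs, interval 0.13 to 0.984). Relative to 16 w it had 24.3 against 17.5 CPM in stromal-like cells and a ratio of 0.535 (0.168 to 1.32) in mural-like cells. Adm differed in direction between the stromal clusters relative to 3 w, with a ratio of 2.21 in the Chad-high and 0.368 in the Sfrp2-high cluster. Relative to 16 w Adm was lower in both, with 5.74 against 6.70 CPM in the Chad-high and 7.09 against 47.2 CPM in the Sfrp2-high cluster. Both flagged differences rest on 1 library per condition and were not themselves tested.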

How the results depend on the processing

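No paired analysis was possible because each condition is 1 library. Over the main counts 166 of 198 alternatives stayed within 1.5 times and 32 moved, and over single genes 576 of 656 stayed, 79 moved and 1 reversed. The reversal was Slc16a3 from 3 d to 3 w, 0.93 with equal cluster weights. The counts that follow show how the calls depend on the settings. No share of all genes is given beside them, so they are not read as results about the members. With a 1.5-fold limit, lower members from 3 d to 3 w numbered 4, higher ones from 3 w to 16 w 9 and from 16 w to 78 w 2, lower ones after injury 4, endothelial-like higher 4 and lower 8, mural-like lower 5, macrophage-like higher 2 and lower 12, and Chad-high lower 2. With marker-based classes, lower from 3 d to 3 w were 1, higher from 16 w to 78 w 0, mural-like lower 1, macrophage-like higher 0, and Chad-high higher 9 and lower 0. With TMM scaling, higher from 16 w to 78 w were 2, lower after injury 1 and macrophage-like higher 0. Without doublets by rank, an alternative chosen after seeing the data, lower from 3 d to 3 w were 1, endothelial-like lower 7 and macrophage-like lower 10. Equal cluster weights gave 3 lower from 3 d to 3 w, no gene minimum gave 1 lower from 3 w to 16 w and 1 higher after injury, finer clusters gave 2 Chad-high lower, and no integration gave 2 macrophage-like higher. Leaving out 1 library gave 1 to 3 endothelial-like higher and 0 to 2 macrophage-like higher, where Pfkfb3 and Pfkfb4 rested on the 3 w library. TMM moved the median log2 ratio of all genes from 0.105 to -0.0678 in endothelial-like, 0.0735 to -0.125 in mural-like, -0.103 to -0.261 in macrophage-like and -0.0936 to 0.0405 in Chad-high cells. The comparison without integration was not run for the Chad-high and Sfrp2-high clusters, since those clusters then came from single libraries. The cause of these moves was not tested. Depth limited the injured library most.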
